A study of Mus musculus with 214 samples.

Results

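The livers described are those of Mgmt-/- mice collected 2 days after their second dose of NDMA or saline, 15 mice of the 213 in the series with deposited values (214 are labelled). They were chosen by their labels alone, as the Mgmt-/- mice collected on day 2, and comprise 8 mice given NDMA (4 males, 4 females) and 7 given saline (3 males, 4 females). N-nitrosodimethylamine (NDMA) was injected into the peritoneum at 3.5 mg/kg on postnatal day 8 and at 7 mg/kg on postnatal day 15, so the livers come from pups of postnatal day 17. All 15 mice have the genotype RaDR+/+;GPT+/+;Mgmt-/- on the C57BL6 background. Mgmt is thus missing in every cell. The mice called WT carry the same RaDR and GPT alleles, reporters of recombination and mutation, with an intact Mgmt. Control mice of both genotypes received saline on the same days. Litters were assigned to one treatment at birth in the study and the labels name no litters, so litter and treatment cannot be told apart. Each mouse gave 1 library of whole liver RNA, all 15 in the same batch (191212Eng). Only the 3′ ends of transcripts were sequenced, and the values are normalised counts per gene.

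NDMA is a small nitrosamine that hepatocytes around the central vein activate with the cytochrome P450 CYP2E1 to a species that methylates DNA. The enzyme O-6-alkylguanine DNA methyltransferase (MGMT) removes the methyl group from guanine. Where it is missing, methylated guanine pairs with thymine at replication, and mismatch repair turns the mispair into breaks that activate ATM, ATR and the tumour suppressor p53. The pup liver still holds dividing hepatocytes and blood-forming cells, and its zonation of metabolism between portal and central vein is being laid down. Interferons are known to raise antiviral and antigen-presenting genes.

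Mgmt itself, on chromosome 7 from 136894614 to 137130266 in GRCm38, was near the floor in all 15 livers, at 0 to 4.63 normalised counts, against 13 to 116 in the 16 WT livers of day 2, which stand in a table normalised separately. The Y-linked genes and Xist followed the labelled sex in every mouse. The hepatocyte markers were abundant, with albumin (Alb) at 122990 to 149420 (median 130580) in saline mice. The 15 libraries held between 2347670 and 3904688 reads in genes, 2463373 to 3904688 in NDMA and 2347670 to 3670101 in saline mice, and 12591 to 13891 genes were detected per library.

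A pair of saline libraries, the male D389006 and the female D389012, stood apart from the other 5 saline libraries. Alpha-fetoprotein (Afp), which the liver shuts down after birth, was at 27.5 and 31.8 in them and at 176 to 1851 in the other 5. The imprinted gene H19 was at 16.3 and 71.8 against 336 to 692. The hormone hepcidin (Hamp), which limits iron uptake, was at 1754 and 1498 against 1.48 to 8.23, while saline mice of day 5 had 10.4 to 2968. The pair was thus low in fetal genes and high in hepcidin where the other saline mice were the reverse. Hmgcs1, an early enzyme of cholesterol synthesis, was at 3518 and 1487 against 149 to 178, and the lipogenic gene Thrsp at 4148 and 1665 against 22 to 237. Over all genes, the correlation with the median saline liver of each age was highest for day 5 in both libraries (r = 0.967 and 0.972), above day 2 (0.945 and 0.959) and day 1 (0.941 and 0.956). The points are genes of the same library, and the values are descriptive. Together with 1 other saline female (D389023) they held traces of kidney transcripts, with summed counts of 21.5, 14.6 and 12.5 against at most 1.75 in the other 12 libraries. By mouse number the pair falls in the evenly spaced sequence of the day 5 saline mice. The 2 saline libraries of day 5 that hold kidney transcripts fall in that of day 2. Whether the labels of collection day were exchanged between these pairs was not tested, so day 2 and day 5 saline mean the labelled day. The labels were kept, and many results that rest on the pair are given with and without it. List counts given once below include the pair and can move by some genes without it. For example, 10 glutathione S-transferases were then higher in place of 7, and 19 antigen presentation genes in place of 21.

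**Figure D1:**
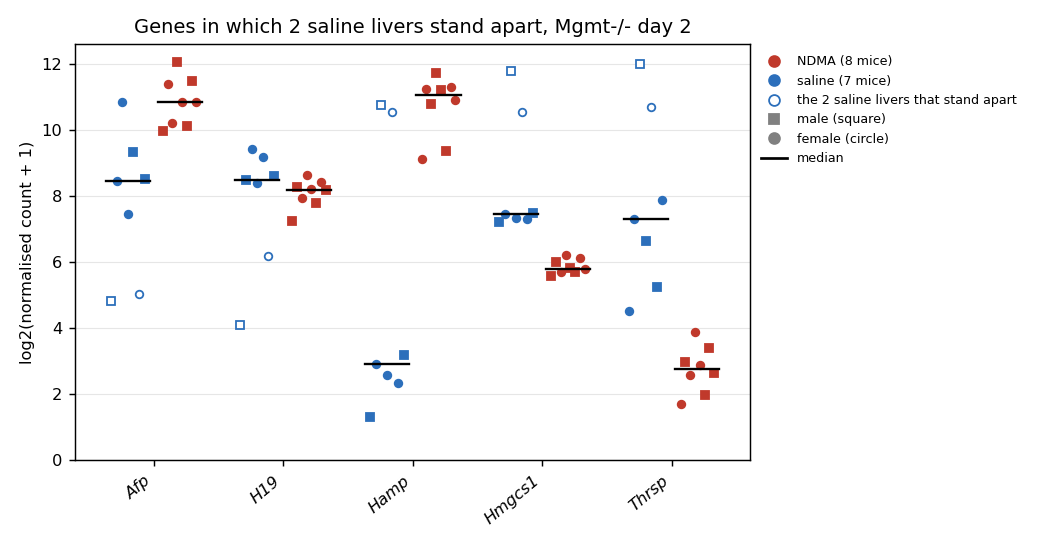
Values of 5 genes in each of the 15 Mgmt-/- livers of day 2, on a log2(normalised count + 1) axis; red is NDMA, blue is saline, open symbols are the 2 saline livers that stand apart, and black lines are medians. The open symbols lie below the other saline mice in Afp and H19 and above them in Hamp, Hmgcs1 and Thrsp.

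The NDMA response at 2 days was broad and leaned upwards. Of 9469 genes with a mean of at least 5 over the 15 mice, 1170 (12.4%) were higher and 710 (7.50%) lower in NDMA mice. A gene was called at an adjusted p below 0.05 and a log2 fold change beyond 0.58 in limma, on log2(normalised count + 1) with sex as a covariate. All 8 NDMA mice lay above all 7 saline mice in 586 of the 9469 genes tested, called or not (6.19%), and below them in 286 (3.02%). On the first principal component, with 57.8% of the variance of the 1000 most variable genes, NDMA mice lay between 19.7 and 36.7 and saline mice between -36.6 and -24.3. Without the pair of saline libraries that stand apart, 1153 of 9526 genes were higher (12.1%) and 717 lower (7.53%), of which 1021 and 571 were also called with the pair. Scaling every library to the same total moved the median log2 fold change of all genes from 0.03 to 0.20 and gave 1681 higher and 413 lower genes, so that 80.3% of calls were higher, against 62.2% with the deposited scaling. Of the genes described below, Acaa1a, Alb, H2-Q10, Ppara, Wnt2 and Tuba4a were not called with that scaling, and Aldh1a1, Hp and Pdia4 were called higher. In whole liver, a lower level can reflect fewer cells of a type or less RNA per cell, and these cannot be told apart.

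The 10 genes with the highest fold changes, among called genes of mean at least 20 whose groups did not overlap, on log2(normalised count + 1), were Ubd, Gm4841, Gsta1, Saa3, Spink1, Cxcl9, Ccl2, Cxcl10, Ddit4l and Cox6b2. The 10 lowest were Thrsp, Slc1a2, Cyp1a2, Prodh, Cyp2e1, Rgn, Oat, Glul, Car5a and Hmgcs1. Without the saline pair that stands apart the log2 fold changes of Thrsp and Hmgcs1 were -3.53 and -1.48 in place of -5.01 and -2.59. The first place of Thrsp and the place of Hmgcs1 thus rest on the pair. The roles of these 20 genes span interferon effectors, acute phase proteins, chemokines and pericentral enzymes. Spink1, a secreted trypsin inhibitor, lay at 585 to 1000 (median 734) in NDMA and 12.7 to 66.8 (median 36.2) in saline mice (log2 fold change 4.47 ± 0.36, adjusted p = 5.8e-07). Ddit4l, a relative of the mTOR inhibitor REDD1, lay at 73.5 to 165 (median 118) against 3.09 to 8.66 (median 4.44) (log2 fold change 4.38 ± 0.21, adjusted p = 3.1e-14). Cox6b2, an isoform of a cytochrome oxidase subunit otherwise found in testis, lay at 182 to 250.3 (median 217) against 6.36 to 12.8 (median 10.4) (log2 fold change 4.33 ± 0.15, adjusted p = 7.8e-17). That the groups do not overlap in these 3 follows from the rule that chose them. Among the lowest, Prodh, the mitochondrial enzyme that opens proline breakdown, fell to 1.48 to 15.4 (median 4.31) from 17.5 to 110.0 (median 97.1) (log2 fold change -3.34 ± 0.47, adjusted p = 4.7e-05). Car5a, the mitochondrial carbonic anhydrase that supplies bicarbonate to the urea cycle, fell to 9.65 to 18.4 (median 15.7) from 61 to 146 (median 109) (log2 fold change -2.64 ± 0.20, adjusted p = 1.7e-10).

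**Figure D2:**
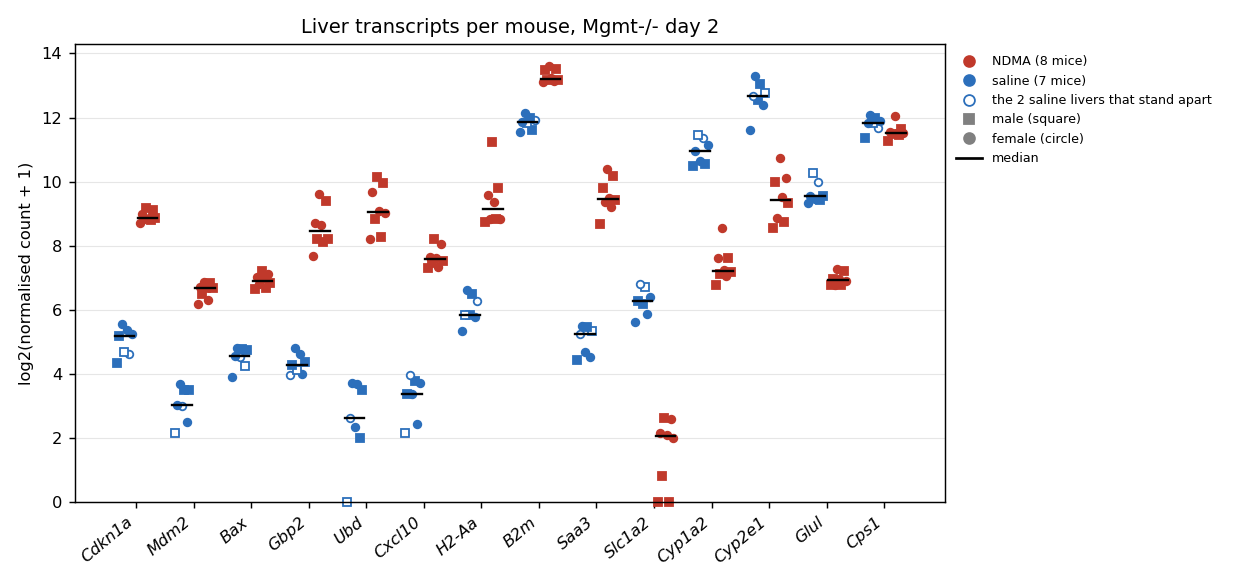
Values of 14 genes in each of the 15 Mgmt-/- livers of day 2, on a log2(normalised count + 1) axis; red is NDMA, blue is saline, open symbols are the 2 saline livers that stand apart, squares are males, circles are females and black lines are medians. NDMA and saline mice do not overlap in any gene shown but Cps1, the urea cycle enzyme, with Cdkn1a to Saa3 higher and Slc1a2 to Glul lower after NDMA. Ubd, Cxcl10, Saa3, Slc1a2, Cyp1a2, Cyp2e1 and Glul were chosen by a rule that asked for no overlap.

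Targets of p53, the factor that DNA breaks activate, rose in most cases. Of 38 listed targets 30 were tested, and 22 were higher and none lower in NDMA mice. Their median log2 fold change was 2.16, beside 0.03 over all genes. Of the 22, 8 had a mean under 5 in saline mice and so passed the filter through the NDMA mice. Such members are counted for each list below where there is more than 1. Cdkn1a (chromosome 17, 29090976 to 29100727), which encodes the cell cycle inhibitor p21, lay at 419 to 576 (median 464) in NDMA mice and at 19.2 to 46.1 (median 35) in saline mice. The narrowest gap between the groups was thus 419 against 46.1, and the log2 fold change was 3.93 ± 0.15 (adjusted p = 3.6e-16). Mdm2, the ubiquitin ligase that degrades p53 and is itself its target, lay at 71.1 to 115 (median 101) against 3.44 to 11.7 (median 7.10) (log2 fold change 3.54 ± 0.21, adjusted p = 2.8e-12). Of the 13 tested genes of arrest and feedback, 11 rose, 3 with a saline mean under 5, among them Ccng1 (log2 fold change 3.49), Psrc1 (4.06), Gtse1 (2.99) and Trp53inp1 (2.69). Btg2, an antiproliferative gene, lay at 297 to 641 (median 428) against 41.3 to 199 (median 75.1), where the highest saline value came from the female D389023.

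Among 8 tested p53 targets of the cell death branch, 6 rose, 4 of them with a saline mean under 5. Bax, which opens the mitochondrial outer membrane, lay at 98.9 to 147 (median 119) in NDMA and 13.9 to 27.1 (median 22.7) in saline mice (log2 fold change 2.40 ± 0.16, adjusted p = 1.2e-11). Eda2r, a death-domain receptor of the TNF family, had 414 reads over the 8 NDMA libraries and 3 over the 7 saline ones, a ratio per read sequenced of 122 (95% interval 41.5 to 595, counting error only). Phlda3 and Pmaip1 (Noxa), an AKT inhibitor and a BH3-only protein, showed log2 fold changes of 4.31 and 3.69. The receptor Fas had a smaller change, at 165 to 252 (median 183) against 76.9 to 139.9 (median 121) (log2 fold change 0.74 ± 0.13, adjusted p = 0.00012), though its groups did not overlap. In the repair branch 5 of 9 rose, among them the translesion polymerase Polk (log2 fold change 2.47 ± 0.27). The nucleotide excision genes Ddb2 (0.22 ± 0.35, adjusted p = 0.7) and Xpc (-0.02 ± 0.25, adjusted p = 0.96) did not pass the test.

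Genes of DNA damage signalling and repair outside that list were called at a share near the background. Of 29 tested, 5 were higher and none lower (median log2 fold change 0.26), 3 of the 5 with a saline mean under 5. They included Brca1 at 6.33 to 17.8 (median 13.6) against 4.26 to 11 (median 6.99) (log2 fold change 0.78 ± 0.26, adjusted p = 0.029). Its groups overlapped, and it did not pass without the pair of saline libraries that stand apart (adjusted p = 0.069). None of the 7 tested base excision genes was called in limma, with 1 at an unadjusted p under 0.05 and 0 calls in edgeR.

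Interferon genes were taken in the order of the pathway. Of the ligands, 3 of 8 were in the table and none reached the filter. Ifng had 14 reads in 7 of 8 NDMA mice and 4 reads in 2 of 7 saline mice, and Ifnb1 had 1 read and 0. Of 5 tested receptors 1 was called. The chains Ifngr1 (-0.10 ± 0.15), Ifngr2 (0.55 ± 0.31), Ifnar1 (0.16 ± 0.21) and Ifnar2 (-0.17 ± 0.14) had log2 fold changes that did not pass, with adjusted p of 0.21 or more. Downstream, 7 of 17 genes of signal transduction rose and none fell. The interferon regulatory factor Irf1 lay at 114 to 221 (median 155) in NDMA and 24.2 to 63.8 (median 40.7) in saline mice and Irf8, a factor of myeloid cells, at 37.2 to 74.4 (median 61.4) against 6.17 to 17.9 (median 12). Irf7 and Irf9 had log2 fold changes of 1.38 and 1.14. These 4 factors were free of overlap between groups, whereas Stat2, a transcription factor of type I signalling, had a log2 fold change of 0.07 ± 0.23 (adjusted p = 0.85).

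Sensors of nucleic acid rose in 9 of 11 tested cases, and with their adaptors and nucleases in 13 of 23. Zbp1, which binds left-handed DNA and RNA, lay at 182 to 499 (median 321) against 44.7 to 69.7 (median 60.4) (log2 fold change 2.40 ± 0.18, adjusted p = 4.8e-10). Ifi204, a DNA sensor, lay at 47.1 to 108 (median 69) against 15.6 to 31.5 (median 28.8) (log2 fold change 1.49 ± 0.19), and its adaptor STING (Tmem173) at 10.2 to 39.4 (median 21.4) against 4.04 to 14.9 (median 6.36) (log2 fold change 1.41 ± 0.29). Zbp1 and Ifi204 separated the groups, and Tmem173 did not.

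Effector genes that interferon gamma is known for rose almost throughout. Of 27 listed, 25 were tested, and 23 were higher and none lower (median log2 fold change 2.59), 9 of the 23 with a saline mean under 5. Ubd (chromosome 17, 37193892 to 37196095), a ubiquitin-like protein also called FAT10, lay at 295 to 1118 (median 525) normalised counts in NDMA mice and 0 to 12.1 (median 5.09) in saline mice (log2 fold change 6.63 ± 0.54, adjusted p = 1e-06). All 10 tested guanylate binding proteins, GTPases that attack the vacuoles of microbes, rose, 5 with a saline mean under 5. Gbp2 lay at 206 to 781 (median 349.8) against 14.6 to 27.1 (median 18.5) (log2 fold change 4.28 ± 0.25), and Gbp7 at 245 to 699 (median 383) against 31.5 to 75.6 (median 49.8) (log2 fold change 2.89 ± 0.22). Of the 10 tested immunity related GTPases 9 rose, 3 with a saline mean under 5. Igtp lay at 628 to 1326 (median 842) against 97.6 to 155 (median 119) (log2 fold change 2.89 ± 0.15, adjusted p = 1.1e-12), and Irgm2 at 111 to 217 (median 146) against 18.3 to 59.7 (median 42.2) (log2 fold change 1.99 ± 0.21). Gm4841 held 1140 reads in NDMA and 3 in saline libraries, a ratio per read sequenced of 336 (95% interval 115 to 1630, counting error only). Members of these families are near copies of each other, and how their shared reads were counted is not given in the sources used here.

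Promoter stretches of 5 interferon genes are shown because interferon factors bind a known element in them. In the 250 bases before the start of each gene, as RefSeq places it in GRCm38.p6, the letters GAAA, any 2 bases and GAAA again, on either strand, were present in 10 of the 16 tested interferon gamma effectors that have a promoter in the table (62.5%). Of these, 4 of 4 guanylate binding proteins and 6 of 7 immunity related GTPases held them. The same letters stood in 274 of 7557 tested genes (3.63%), in 74 of 920 genes called higher (8.04%), in 18 of 569 called lower (3.16%) and in 1 of 24 tested p53 targets. Of the other interferon lists, 8 of 23 type I effectors, 3 of 22 antigen presentation genes, 2 of 14 genes of signal transduction and 1 of the 2 interferon induced chemokines held them. The stretches below, 60 bases each and written 5′ to 3′ along the gene, carry the motif or its reverse complement in capitals.
Cxcl10, chr5:92349068-92349127, minus strand, motif 213 bases before the start: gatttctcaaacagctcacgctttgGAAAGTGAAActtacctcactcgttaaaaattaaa
Gbp7, chr3:142530258-142530317, plus strand, motif 53 bases before the start: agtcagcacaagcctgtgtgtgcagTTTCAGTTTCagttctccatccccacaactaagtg
Igtp, chr11:58199496-58199555, plus strand, motif 34 bases before the start: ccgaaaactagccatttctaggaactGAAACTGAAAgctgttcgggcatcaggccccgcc
Irgm2, chr11:58214888-58214947, plus strand, motif 64 bases before the start: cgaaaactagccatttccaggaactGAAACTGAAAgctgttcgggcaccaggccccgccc
Ifit1, chr19:34640779-34640838, plus strand, the nearer of a pair of motifs 85 bases before the start: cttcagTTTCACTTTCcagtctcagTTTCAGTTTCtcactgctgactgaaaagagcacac
The stretches of Igtp and Irgm2, which are neighbours on chromosome 11, share a run of 29 bases that holds the motif, and Ifit1 holds the motif as a pair on the other strand. The other motif searched, TTCNNNGAA, which reads the same on both strands and can share letters with the first, stood in 8 of the 16 interferon gamma effectors and in 7.11% of tested genes. A match is a description of the letters, not a bound site.

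Effectors known mainly from type I interferon rose in 24 of 29 tested cases and fell in none (median log2 fold change 1.34), with 2 of the 24 at a saline mean under 5. Ifit1, which binds foreign RNA caps, lay at 75.5 to 137 (median 96.2) against 16.2 to 34.8 (median 24.8) (log2 fold change 1.94 ± 0.18, adjusted p = 4e-09). Isg15, a ubiquitin-like modifier, lay at 9.65 to 58.7 (median 18.7) against 1.72 to 8.26 (median 4.62) (log2 fold change 2.29 ± 0.33). Usp18, the protease that removes ISG15 and dampens the receptor, lay at 128 to 256 (median 179) against 41.2 to 101 (median 66) (log2 fold change 1.36 ± 0.17). These 3 separated the groups; Rsad2 (viperin) and Bst2 (tetherin) were called with overlap, at log2 fold changes of 0.90 ± 0.23 and 1.09 ± 0.23.

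Antigen presentation rose in 21 of 26 tested genes and fell in 1 (median log2 fold change 1.42). B2m, the light chain of class I molecules and the most abundant of the list, lay at 8845 to 12543 (median 9446) against 2972 to 4545 (median 3731) (log2 fold change 1.46 ± 0.11, adjusted p = 9.6e-11), and the heavy chain H2-D1 at 628 to 1191 (median 766) against 219 to 375 (median 249) (log2 fold change 1.56 ± 0.14). The peptide transporter Tap1 lay at 31.3 to 61.3 (median 49) against 3.09 to 14 (median 8.14) (log2 fold change 2.39 ± 0.25). No NDMA mouse was within the saline range in these 3. The immunoproteasome subunits Psmb8, Psmb9 and Psmb10 had log2 fold changes of 1.94, 2.33 and 1.38, with no overlap. None of 26 subunits of the constitutive proteasome was called in limma (median 0.25), with 15 at an unadjusted p under 0.05 and 0 calls in edgeR, while 5 were higher when libraries were scaled to the same total and 2 without the pair of saline libraries that stand apart. All 6 tested class II genes rose. H2-Aa (chromosome 17, 34282744 to 34287823) lay at 424 to 2403 (median 560.2) against 39.8 to 97.3 (median 56.7) (log2 fold change 3.36 ± 0.35, adjusted p = 9.5e-06), and the invariant chain Cd74 at 90.9 to 431 (median 150.3) against 6.66 to 16.3 (median 11.3) (log2 fold change 3.72 ± 0.26). In both the highest value came from the NDMA male D389077. The 1 gene that fell, the liver class I gene H2-Q10, lay at 700.1 to 979 (median 823) against 1006 to 1180 in 5 saline mice and 2406 and 2610 in the pair that stands apart. It was not called without that pair (log2 fold change -0.70 with it, -0.35 without).

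Chemokines rose in 12 of 14 tested cases, 4 of the 12 with a saline mean under 5. Cxcl10 (chromosome 5, 92346638 to 92348889) and Cxcl9, both ligands of the receptor CXCR3 on T cells, lay at 156 to 295 (median 189) against 3.44 to 14.6 (median 9.26) and at 174 to 482 (median 278) against 6.35 to 35.6 (median 11.2) (log2 fold changes 4.40 ± 0.24 and 4.46 ± 0.33, adjusted p = 6.9e-12 and 7.4e-08). Ccl2, which draws monocytes through CCR2, lay at 70.7 to 287 (median 137) against 2.20 to 16.7 (median 5.14) (log2 fold change 4.44 ± 0.37). Cxcl1, a neutrophil attractant, lay at 37.2 to 69.4 (median 55) against 7.20 to 32.7 (median 8.59), with 1 saline female (D389047) at the highest saline value. No NDMA mouse fell within the saline range in any of these 4. Cxcl12, made by sinusoidal and stellate cells, moved the other way, at 74.4 to 154 (median 121) against 201 to 456 (median 274) (log2 fold change -1.25 ± 0.17, adjusted p = 6.1e-06). Cytokines and their receptors were mixed, with 4 of 11 higher and 2 lower. Without the saline pair that stands apart 3 were higher and 1 lower, and with the same total per library 4 and 1. The TWEAK receptor Tnfrsf12a lay at 53 to 274 (median 148) against 30.5 to 54.5 (median 37.7) (log2 fold change 1.74 ± 0.27), and the receptor Il6ra at 22.4 to 66.3 (median 43) against 32.7 to 143 (median 90.3) (log2 fold change -0.80 ± 0.23).

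Markers of other cells moved with these genes, and their part in the results above was not tested. All 10 tested T and NK cell markers, of 18 in the table, were higher (median log2 fold change 2.60), 5 of them with a saline mean under 5. The 18 summed to 252 to 708 (median 481) in NDMA and 48.3 to 95.4 (median 84.4) in saline mice. Gzma, a granzyme and the most abundant of them, lay at 65.4 to 171 (median 133) against 8.26 to 28.9 (median 18.5) (log2 fold change 2.70 ± 0.26), and Cd3g at 29.7 to 67.4 (median 44.2) against 9.45 to 19.2 (median 11.4) (log2 fold change 1.79 ± 0.22). The macrophage list, summed, was at 2843 to 7057 (median 3361) against 1323 to 2240 (median 1787), and no NDMA mouse was within the saline range in either list. Of 14 tested markers of monocytes and macrophages in general 10 rose, 3 of them with a saline mean under 5. Lyz2, lysozyme, lay at 849 to 3004 (median 1143) against 238 to 352 (median 321) (log2 fold change 2.06 ± 0.22), and Ccr2, the receptor of CCL2 on monocytes, at 23.7 to 52.5 (median 37) against 1.72 to 3.70 (median 2.06) (log2 fold change 3.43 ± 0.25, adjusted p = 7.5e-11). Of 8 markers of resident Kupffer cells 3 rose, Cd5l, Marco and Timd4 (log2 fold changes 1.47, 1.77 and 0.88). Clec4f lay at 136 to 396 (median 173) against 209 to 399.7 (median 257) (log2 fold change -0.54 ± 0.21, adjusted p = 0.068) and Vsig4 at 84 to 140.2 (median 96.8) against 61 to 158 (median 106). Timd4 was not called without the pair of saline libraries that stand apart.

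Blood-forming cells and structural cells showed other directions. Red cell precursor markers fell in 4 of 8 tested cases, and their sum overlapped between groups (17816 to 31686 against 20348 to 52090). Alas2, the haem synthesis enzyme of red cells, lay at 109 to 193 (median 155) against 181 to 398 (median 266) (log2 fold change -0.84 ± 0.16). Of 6 tested markers of neutrophils and their precursors 3 were lower and 1 higher, and edgeR and DESeq2 on whole reads each called 5 of 8 lower and 1 higher. Camp and Ngp, of the granules, were lower (log2 fold changes -2.57 ± 0.48 and -2.06 ± 0.36), and Ltf, lactoferrin, was higher at 37.2 to 66.3 (median 43.1) against 1.48 to 26.7 (median 13.8) (log2 fold change 1.97 ± 0.35, adjusted p = 0.00035). Of 10 endothelial markers 2 rose and 3 fell. The Wnt signal amplifier Rspo3, made by the central vein, lay at 4.45 to 9.27 (median 5.68) against 11.2 to 27.9 (median 19.2) (log2 fold change -1.48 ± 0.26, adjusted p = 7.8e-05) and Wnt2 at 7.42 to 27.8 (median 12) against 12.1 to 38.1 (median 27.7) (log2 fold change -0.85 ± 0.26). Of 15 stellate and fibroblast markers 3 rose and 6 fell (median log2 fold change -0.29). Their list summed to 1062 to 1479.4 in NDMA and 1141.5 to 1862.6 in saline mice, with overlap. Timp1 and Acta2, linked to activation of these cells, had log2 fold changes of 3.19 ± 0.35 and 2.06 ± 0.22, while Reln and Lrat, genes of quiescent stellate cells, had -2.12 ± 0.26 and -0.77 ± 0.17. None of the 4 overlapped between groups, and they do not stand for the list, in which more markers fell than rose. The 2 tested B cell markers were called in neither limma nor edgeR, with 0 at an unadjusted p under 0.05, and their list summed to 8.16 to 31.1 against 19.8 to 33.5.

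**Figure D3:**
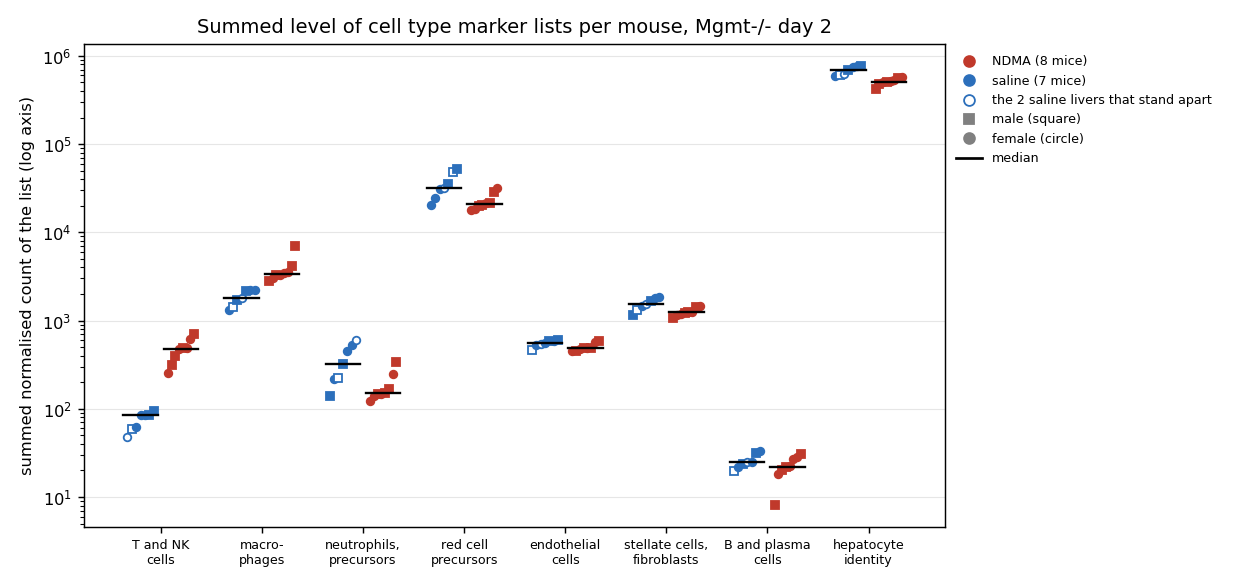
Summed normalised count of 8 lists of cell type markers in each of the 15 Mgmt-/- livers of day 2, on a log axis; red is NDMA, blue is saline, open symbols are the 2 saline livers that stand apart, squares are males, circles are females and black lines are medians. With the deposited scaling, T and NK cell and macrophage sums lie above the saline range in all 8 NDMA mice and the hepatocyte sum below it. The other 5 lists overlap. As shares of the library total the hepatocyte sums of NDMA and saline mice overlap.

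Hepatocyte identity genes were called lower in 7 of 30 cases, 4 when libraries were scaled to the same total, while acute phase proteins rose. With the deposited scaling the 15 plasma protein genes summed to 424660 to 576580 in NDMA and 590680 to 767440 in saline mice, without overlap. The ratio of medians was 0.744. As shares of the library total the groups overlapped. The NDMA male D389065, at 555940 of 2129530, lay above the saline male D389006, at 612990 of 2386460. Albumin (Alb) lay at 61785 to 109730 (median 81587) against 122990 to 149420 (median 130580) (log2 fold change -0.69 ± 0.09, adjusted p = 2.4e-06) and transthyretin (Ttr), the thyroxine carrier, at 40993 to 68948 (median 56951) against 73382 to 123500 (median 100140) (log2 fold change -0.76 ± 0.12). Of 15 hepatocyte transcription factors 3 fell, Nr0b2, Nr1i3 and Ppara (log2 fold changes -1.24, -0.82 and -0.61), and the master factor Hnf4a had -0.04 ± 0.17 (adjusted p = 0.9). Of 19 acute phase genes 10 rose and 1 fell. Saa3, a serum amyloid of macrophages and stressed hepatocytes, lay at 405 to 1348 (median 699) against 20.6 to 44 (median 36.9) (log2 fold change 4.54 ± 0.25, adjusted p = 1.1e-09), Saa1 at 496 to 1190 (median 704) against 40.1 to 132 (median 63.6) (log2 fold change 3.55 ± 0.23) and the siderophore binder Lcn2 at 222 to 857 (median 332) against 11.2 to 40.1 (median 27.1) (log2 fold change 3.87 ± 0.33). All 3 separated the groups, which for Saa3 follows from the rule for the 10 highest genes. Haptoglobin (Hp) was not called, at a log2 fold change of 0.46 ± 0.17 (adjusted p = 0.055). Hepcidin (Hamp) depended on the pair of saline libraries that stand apart, with NDMA mice at 555 to 3420 (median 2154) and the other 5 saline mice at 1.48 to 8.23. The log2 fold change of Hamp was 5.88 ± 1.51 with the pair (adjusted p = 0.012) and 8.25 without it (adjusted p = 5.5e-07). With the pair it was called neither in edgeR (2.03, adjusted p = 0.322) nor in DESeq2 (1.99, adjusted p = 0.236).

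Genes of the zone around the central vein, where NDMA is activated, fell in 14 of 17 tested cases and rose in none (median log2 fold change -1.75), 2 of the 14 with a mean under 5 in NDMA mice, which thus passed the filter through the saline mice. Slc1a2 (chromosome 2, 102658659 to 102790784), the glutamate transporter of the last hepatocyte layer, lay at 0 to 5.19 (median 3.12) in NDMA mice and 47.7 to 112 (median 76.9) in saline mice (log2 fold change -4.69 ± 0.36, adjusted p = 9.8e-10). Cyp1a2 (chromosome 9, 57676937 to 57683703) lay at 108 to 371 (median 148) against 1442 to 2795 (median 1992) (log2 fold change -3.53 ± 0.22, adjusted p = 3.3e-09), and Cyp2e1 itself at 371 to 1709 (median 687) against 3154 to 10163 (median 6514) (log2 fold change -3.13 ± 0.35, adjusted p = 2e-05). The highest NDMA mouse was below the lowest saline mouse in each. Glutamine synthetase (Glul) lay at 107 to 153 (median 121) against 642 to 1243 (median 744) (log2 fold change -2.70 ± 0.13, adjusted p = 5.5e-14) and ornithine aminotransferase (Oat) at 78 to 191 (median 102) against 669.5 to 951 (median 792) (log2 fold change -2.83 ± 0.14). Rgn, Lect2, Gulo, Rhbg, Tbx3 and Slco1b2 fell as well, with log2 fold changes of -3.11, -2.42, -1.90, -1.72, -1.75 and -1.55. The exception in sign was Aldh1a1, a retinal dehydrogenase, at 149 to 224 (median 177) against 28.6 to 209.7 (median 73.8) (log2 fold change 1.05 ± 0.38, adjusted p = 0.057); it was called higher without the pair of saline libraries that stand apart (log2 fold change 1.54).

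Genes of the portal zone had a median log2 fold change of -0.03, with 4 of 24 higher, a share near the 12.4% of all genes, and none lower. The urea cycle enzyme Cps1 had a log2 fold change of -0.24 ± 0.11 (adjusted p = 0.12). Cps1 lay at 2479 to 4200 (median 2912) against 2602 to 4324 (median 3633), so the groups overlapped. Among the 4 that rose were Hsd17b13, a lipid droplet enzyme, at 2228 to 3075 (median 2492) against 906 to 1193 (median 1052) (log2 fold change 1.29 ± 0.10), and Ctsc, a lysosomal protease also made by immune cells, at 483 to 1244 (median 620.4) against 156 to 261 (median 248) (log2 fold change 1.49 ± 0.16). The portal median was 0.14 when libraries were scaled to the same total, and without the pair of saline libraries that stand apart 5 were higher and 2 lower.

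**Figure D4:**
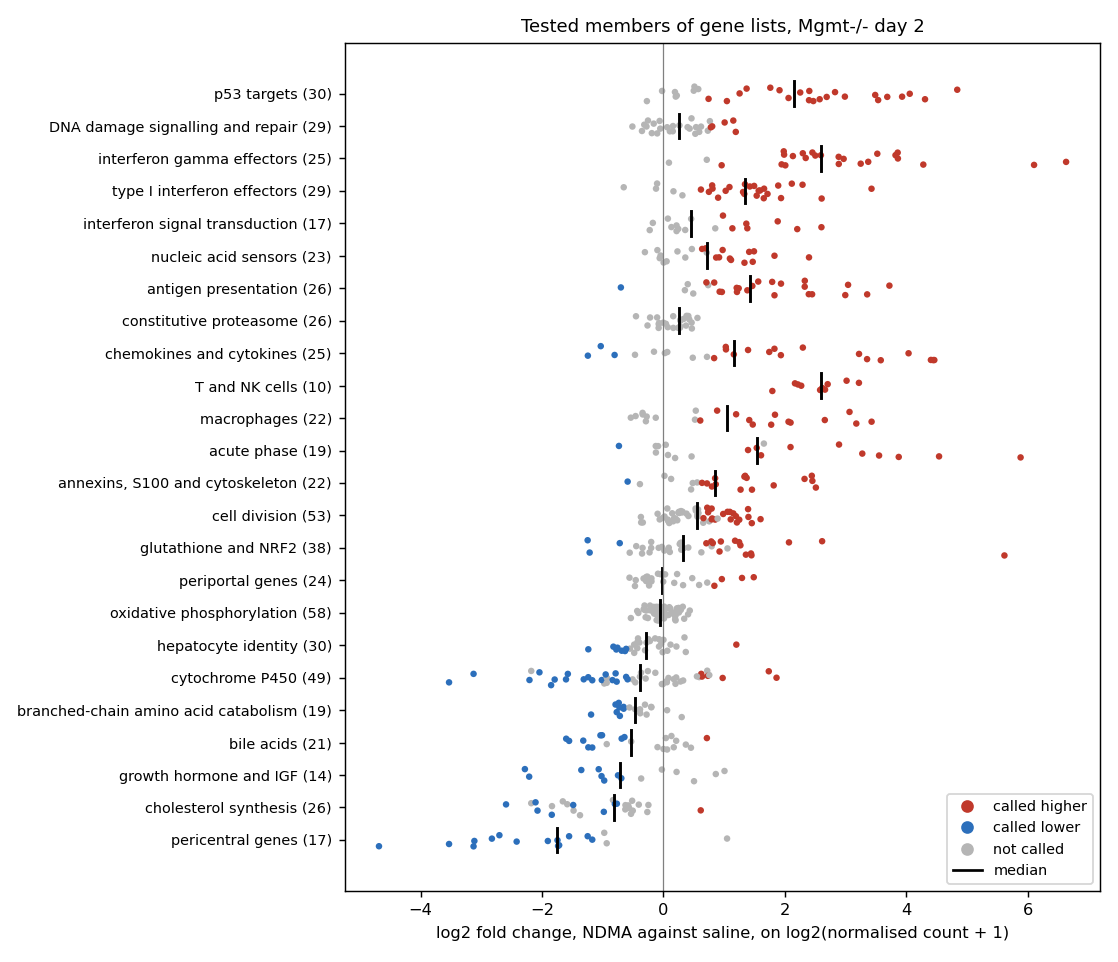
Log2 fold change (NDMA against saline, on log2(normalised count + 1)) of each tested member of 24 gene lists in Mgmt-/- livers of day 2, with the number tested in brackets; red points were called higher, blue lower, grey neither, and black bars are list medians. The interferon gamma effectors and T and NK cell markers lie furthest to the right, at medians of 2.59 and 2.60, and the pericentral genes furthest to the left, at -1.75.

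Drug metabolism genes moved unevenly. Of 49 tested cytochrome P450 genes 18 were lower and 6 higher, the latter a share near the 12.4% of all genes. The CYP2C enzymes Cyp2c29 and Cyp2c50 lay at 929.8 to 3046 (median 2051) against 5387 to 11617 (median 5972) and at 488 to 973 (median 643) against 1362 to 3206 (median 1675) (log2 fold changes -1.85 ± 0.24 and -1.57 ± 0.17). Cyp2a4, a steroid hydroxylase close in sequence to Cyp2a5, rose to 39.9 to 82.5 (median 52.1) from 5.14 to 37.5 (median 10.6) (log2 fold change 1.86 ± 0.35), and Cyp7a1, the rate-limiting enzyme of bile acid synthesis, did not pass in limma (log2 fold change -0.93 ± 0.40, adjusted p = 0.11) and was called lower in DESeq2 (-1.21, adjusted p = 0.0132). Glutathione S-transferases rose in 7 of 22 cases and fell in 3, with 2 of the 7 at a saline mean under 5. Gsta1 (chromosome 9, 78230656 to 78242684) had 609 reads in NDMA mice, at 26.5 to 93.5 (median 45.6) normalised counts, and 0 reads in saline mice, at least 180-fold higher against a floor of 3 reads over the saline group. The near copy Gsta2 lay at 40.5 to 103 (median 74.1) against 7.81 to 28.4 (median 15.4), and Gsta3 fell to 1119 to 2059 (median 1547) from 2568 to 5602 (median 3172) (log2 fold change -1.25 ± 0.15). NRF2 targets rose in 7 of 16 cases and fell in none. Nqo1, a quinone reductase, lay at 64.2 to 135 (median 93.5) against 29.2 to 42.5 (median 33.4) (log2 fold change 1.45 ± 0.15, adjusted p = 4.8e-08) and Srxn1 had a log2 fold change of 1.44 ± 0.21. Gclc, the enzyme that limits glutathione synthesis, had 0.01 ± 0.19 (adjusted p = 0.97).

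Sterol and fatty acid synthesis depended on the saline pair that stands apart. With all mice, 8 of 26 cholesterol genes were lower and 1 higher (median log2 fold change -0.82), 2 of the 8 with an NDMA mean under 5, and without the pair 5 were lower and none higher (median -0.24). With all mice, whole reads gave 16 of 27 lower in edgeR (median -1.71) and 12 in DESeq2 (median -1.75), which gave no adjusted p for 10, and none higher in either. Hmgcs1 fell in limma with and without the pair, at log2 fold changes of -2.59 ± 0.69 (adjusted p = 0.014) and -1.48 (adjusted p = 1.4e-08). NDMA mice lay at 47.5 to 73.9 (median 55.2) and the other 5 saline mice at 149 to 178. Of 16 genes of fatty acid synthesis 5 were lower and 1 higher with the pair, and 4 and 4 without it. Thrsp, a driver of lipogenesis, lay at 2.30 to 13.9 (median 5.86) in NDMA mice and fell with and without the pair (log2 fold changes -5.01 ± 1.03 and -3.53). Scd1 and Elovl6, a desaturase and an elongase, were called higher when the pair was left out and not with it, at log2 fold changes of 1.39 and 2.49 against 0.45 and 1.20 with it. Fatty acid oxidation was called lower in 5 and higher in 4 of 27 genes, the latter a share near the 12.4% of all genes. Without the pair it was 9 and 2. With the same total per library it was 2 and 4, and edgeR and DESeq2 each called 8 of 28 lower and 4 higher.

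Lipid droplet and lipoprotein genes rose in 5 of 20 cases and fell in 4. Apoa4, an apolipoprotein of fat export, lay at 162 to 292 (median 191) against 35.6 to 79.2 (median 44) (log2 fold change 2.01 ± 0.15, adjusted p = 1.8e-10). Cidec, which fuses lipid droplets, and Plin2, which coats them, had log2 fold changes of 2.87 ± 0.42 and 0.73 ± 0.13. Fabp1, the fatty acid carrier of hepatocytes, fell to 15787 to 27658 (median 19152) from 34309 to 102770 (median 41030) (log2 fold change -1.31 ± 0.22, -0.97 without the pair). The groups did not overlap in Apoa4, Cidec and Fabp1 and overlapped in Plin2.

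Of 21 bile acid genes 9 were lower and 1 higher. The uptake carrier Slc10a1 (NTCP) lay at 757 to 1424 (median 988) against 1700 to 3249 (median 1952) (log2 fold change -1.04 ± 0.15) and the export pump Abcb11 at 76.1 to 124 (median 107) against 153 to 315 (median 201) (log2 fold change -1.01 ± 0.14). Abcb4, the phospholipid flippase of the canaliculus, was the gene that rose (log2 fold change 0.72 ± 0.13). Branched-chain amino acid breakdown fell in 8 of 19 cases, a count that became 3 when libraries were scaled to the same total, and of 15 genes from tryptophan to NAD 3 rose and 3 fell. Of 14 genes of the growth hormone axis 8 were lower and none higher (5 lower with the same total per library). The receptor Ghr lay at 102 to 175 (median 142) against 279.5 to 425 (median 368) (log2 fold change -1.35 ± 0.12, adjusted p = 3.9e-09), its target Igf1 at 669 to 1969 (median 1700) against 2163 to 4550 (median 3236) (log2 fold change -1.02 ± 0.23) and Igfals, the subunit that keeps IGF1 in plasma, at 26 to 119 (median 87.2) against 195 to 602 (median 368) (log2 fold change -2.28 ± 0.30). NDMA mice were below all saline mice in these 3. None of 58 tested nuclear subunits of oxidative phosphorylation was called in limma (median log2 fold change -0.05), with 16 at an unadjusted p under 0.05, and 0 were called in edgeR.

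Fetal and imprinted genes gave no common direction, with 1 of 9 higher, a share near the 12.4% of all genes, and 2 lower. Afp lay at 1013 to 4316 (median 1852) in NDMA mice against 176 to 1851 in the other 5 saline mice and 27.5 and 31.8 in the pair that stands apart (log2 fold change 3.10 ± 0.85, adjusted p = 0.017, and 1.94, adjusted p = 0.03, without the pair). It was called in DESeq2 (2.12, adjusted p = 0.0154) and not in edgeR (2.14, adjusted p = 0.0766). H19 changed sign with the pair: 0.37 ± 0.68 (adjusted p = 0.74) with it and -0.69 (adjusted p = 0.01) without it.

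Of 24 tested genes of G2 and mitosis 16 rose and none fell (median log2 fold change 0.89), with cyclin B1 (Ccnb1) at 73.5 to 132 (median 111) against 28.9 to 55.5 (median 36.7) (log2 fold change 1.45 ± 0.16, adjusted p = 8.4e-08) and Top2a, the topoisomerase of mitotic chromosomes, at 104 to 163 (median 137) against 42.6 to 90.2 (median 65.3) (log2 fold change 1.09 ± 0.16). Both separated the groups, but Mki67, the usual proliferation marker, lay at 8.44 to 37.8 (median 23.5) against 15.4 to 44.5 (median 18.5) (log2 fold change -0.01 ± 0.26, adjusted p = 0.98). Of 22 genes of S phase 3 were higher (5 with the same total per library), a share near the 12.4% of all genes, and the replication clamp Pcna had a log2 fold change of 0.26 ± 0.17 (adjusted p = 0.27). The difference between the phases was not tested.

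Stress and cytoskeletal genes rose in part. Of 9 tested genes of the integrated stress response 4 were higher, Ddit3 (CHOP) at 31.3 to 72 (median 43.9) against 5.87 to 21.5 (median 14.9) (log2 fold change 1.56 ± 0.22) and asparagine synthetase (Asns) with a log2 fold change of 1.19 ± 0.17. Of 12 chaperones of the endoplasmic reticulum 2 were higher and 1 lower, shares near the 12.4% and 7.50% of all genes. Without the saline pair that stands apart 5 were higher and 1 lower. With the same total per library the higher count of both stress lists together was 11 in place of 6. Immediate early genes rose in 4 of 9 cases, with Jun at 13.1 to 51.1 (median 21.5) against 5.68 to 32.3 (median 7.51) (log2 fold change 1.27 ± 0.33). Annexins and S100 proteins, calcium-binding partners of membranes, rose in 8 of 13 cases and tubulins in 7 of 9, with Tuba4a lower (log2 fold change -0.59 ± 0.12) and not called without the saline pair that stands apart (-0.45). S100a11 lay at 133 to 230.1 (median 167) against 20.7 to 60.9 (median 30.5) (log2 fold change 2.44 ± 0.18, adjusted p = 7.5e-11) and Anxa5 at 736 to 1024 (median 805) against 246 to 427 (median 348) (log2 fold change 1.27 ± 0.11). Of 13 genes known from damaged hepatocytes 8 rose, among them Ly6d at 207 to 487 (median 285) against 5.16 to 40.1 (median 25.7) (log2 fold change 3.84 ± 0.35, adjusted p = 1.1e-06) and the trefoil peptide Tff3 at 240.4 to 733 (median 449.9) against 21.4 to 116 (median 44.8) (log2 fold change 3.23 ± 0.32), while the metallothioneins Mt1 and Mt2 did not pass (-0.65 ± 0.56 and -0.49 ± 0.69).

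Day 2 was then set beside day 1 and day 5 of the same genotype and batch, each with its own saline mice, to ask whether the response moved within the first week. At day 1, 913 of 9781 genes (9.33%) were higher and 785 (8.03%) lower. At day 5, without a pair of saline libraries that hold kidney transcripts, 1037 of 9306 (11.1%) were higher and 624 (6.71%) lower. No gene had a log2 fold change at day 2 that differed from day 1 in limma's interaction test (0.00% of 9658 in either direction), with 580 genes at an unadjusted p under 0.05 and 0 calls in edgeR on whole reads (715 at an unadjusted p under 0.05). Cdkn1a had log2 fold changes of 4.63 ± 0.19 at day 1, 3.93 ± 0.15 at day 2 and 4.13 ± 0.24 at day 5, and Slc1a2 -4.00 ± 0.44, -4.69 ± 0.36 and -3.81 ± 0.27. Ccr2 was at 2.06 ± 0.32, 3.43 ± 0.25 and 2.31 ± 0.27. These values lie side by side without a difference that passed. On simulated data the limma test of day 2 against day 1 recovered 36% of log2 differences of 1 and 95% of those of 2.

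Against day 5, 3 genes had a higher (0.0319% of 9406) and 6 a lower fold change (0.0638%) at day 2. Ltf stood out: its log2 fold change was 1.97 ± 0.35 at day 2 and -2.15 ± 0.36 at day 5 (difference 4.09, adjusted p = 3e-05). Spp1, osteopontin, and Pdia4, a protein disulphide isomerase, were the other 2 with a higher value at day 2 (differences 1.07 and 0.83, adjusted p = 0.011 and 0.014). The fall of Cyp1a2 was -3.53 ± 0.22 at day 2 and -1.53 ± 0.31 at day 5 (difference -2.0, adjusted p = 0.028), and that of Lect2, a secreted hepatocyte protein, -2.42 ± 0.16 and -1.21 ± 0.12 (difference -1.21, adjusted p = 0.004). The peroxisomal thiolase Acaa1a, the ethanolamine kinase Etnk2 and Abhd15 were lower at day 2 (log2 fold changes -0.61, -1.22 and -1.35) and lay at 0.46 ± 0.14, -0.14 ± 0.14 and 0.28 ± 0.21 at day 5 (differences -1.07, -1.08 and -1.62). The pericentral genes Glul and Cyp2e1 had no difference that passed. Without the day 2 saline pair that stands apart the counts were 41 and 21, and with the day 5 kidney-bearing libraries 0 and 1.

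**Figure D5:**
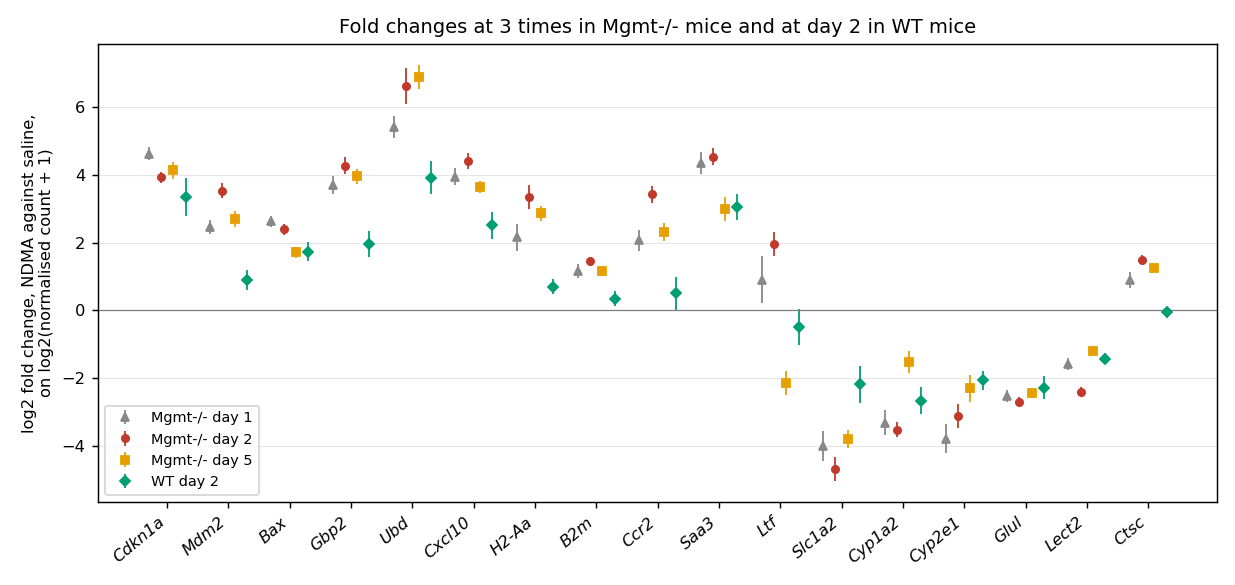
Log2 fold change of NDMA against saline, on log2(normalised count + 1), for 17 genes in Mgmt-/- livers at day 1 (grey), day 2 (red) and day 5 (orange) and in WT livers at day 2 (green); bars are standard errors. WT values are nearer to 0 than the Mgmt-/- values of day 2 in all 17 genes, Ltf changes sign at day 5, and Cyp1a2 and Lect2 lie deeper at day 2 than at day 5.

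The last question was how the response at 2 days differs with a working Mgmt. In WT livers of day 2, 8 NDMA and 8 saline mice, 285 of 8568 genes (3.33%) were higher and 249 (2.91%) lower. The difference was tested in edgeR on recovered whole reads on the 15 Mgmt-/- libraries and 13 WT libraries (8 NDMA and 5 saline) in which whole reads could be recovered, so 3 WT saline libraries did not enter. The WT libraries were shallower, at 150038 to 2329956 reads. Of 9552 genes, 228 (2.39%) had a higher and 120 (1.26%) a lower log2 fold change in Mgmt-/- mice. These counts were 142 and 74 without the WT saline mouse D215003 and 146 and 71 without D215001, 190 lower without the WT NDMA mouse D215006 and 78 lower without the WT NDMA mouse D202005. The WT livers of day 2 were in other batches than the Mgmt-/- livers, with males and females apart, so batch cannot be told apart from genotype in this test.

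Among p53 targets 4 of 30 differed, all with the higher value in Mgmt-/- mice. Mdm2 had log2 fold changes of 3.54 ± 0.21 in Mgmt-/- and 0.89 ± 0.31 in WT livers, which edgeR put at a difference of 2.56 (adjusted p = 0.00026), whereas Cdkn1a, at 3.93 ± 0.15 and 3.35 ± 0.55, had a difference that did not pass (1.44, adjusted p = 0.17). The fold changes of each genotype are from limma with 8 WT saline mice and the differences from edgeR on whole reads with 5, so a difference is not the subtraction of the fold changes beside it. Of 22 interferon gamma effectors 9 differed, all in the same direction, among them Igtp (1.90, adjusted p = 0.00096), Ubd (3.40, adjusted p = 0.039) and Gm4841 (4.90, adjusted p = 0.044). Ubd and Gm4841 did not pass without the saline pair that stands apart (adjusted p = 0.077 and 0.079). Upstream of them, Irf1 (1.33, adjusted p = 0.0045) differed.

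Antigen presentation differed in 9 of 26 genes and macrophage markers in 6 of 22, all higher in Mgmt-/- mice. H2-Aa had log2 fold changes of 3.36 ± 0.35 and 0.70 ± 0.22 (difference 2.92, adjusted p = 0.0019), Cd74 a difference of 2.85 (adjusted p = 0.00062) and Ccr2 one of 3.47 (adjusted p = 0.00068). Lyz2 moved with them (1.59, adjusted p = 0.0014). In the pericentral list 3 of 17 fell more deeply in Mgmt-/- mice, Rgn (-1.47, adjusted p = 0.0082), Slc1a2 (-2.21, adjusted p = 0.045) and Lect2 (-1.07, adjusted p = 0.048), and Slc1a2 did not pass without the saline pair (adjusted p = 0.07). Cyp2e1 had log2 fold changes of -3.13 ± 0.35 in Mgmt-/- and -2.07 ± 0.29 in WT mice, with a difference that did not pass (-0.93, adjusted p = 0.48), as for Glul (-0.36, adjusted p = 0.67).

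Of the genes with the largest differences in either direction, Pqlc3 had 3.43 (adjusted p = 0.018) and Gsta1 5.78 (adjusted p = 0.049), a fitted value that depends on the prior count because its saline reads were 0. Without the saline pair that stands apart Gsta1 did not pass (adjusted p = 0.068). At the other end stood Thrsp (-6.82, adjusted p = 0.0047), A1bg (-6.07, adjusted p = 0.03), Odf3b (-2.84, adjusted p = 3.5e-05), Prodh (-2.48, adjusted p = 0.032) and Car5a (-2.37, adjusted p = 2.5e-05), of which Prodh did not pass without the pair (adjusted p = 0.06). A1bg was itself not called at day 2 in limma and was lower in edgeR (-4.76, adjusted p = 0.0168), with saline values of A1bg from 0 to 16.2 in 5 mice and at 128 and 240.3 in the pair that stands apart. Odf3b lay at 7.42 to 18.4 (median 11.8) against 18.9 to 75.1 (median 39.8) in Mgmt-/- mice (log2 fold change -1.78 ± 0.25) and had a log2 fold change of 0.84 ± 0.27 in WT mice.

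No gene passed the test of a difference in response between male and female Mgmt-/- mice. The interaction of sex and treatment gave 0 of 9469 genes (0.00%) in limma, with 255 at an unadjusted p under 0.05, and 0 in edgeR on whole reads, with 298. Males alone gave 745 higher and 391 lower genes and females alone 813 and 436. Each sex and treatment held 3 or 4 mice. On simulated data, with changes placed only in genes with a mean of at least 20 reads, the limma test recovered 13% of log2 differences of 1 and 75% of those of 2. Of its calls there, 6.38% were false.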

How the data were processed

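The authors prepared 3′ digital gene expression libraries from whole liver RNA with primers that carry molecular identifiers, aligned them with STAR to GRCm38 (mm10), counted reads per gene with ESAT and divided by DESeq2 size factors; the deposited values are thus a signal, normalised counts per gene, with each genotype normalised on its own. STAR and DESeq2 are named in the submitters' processing notes; versions and annotation are not given in the sources used here. All 213 value columns matched a labelled mouse.

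Values of the 15 libraries were whole multiples of one read (100% within 0.05), so the whole reads were recovered. Depth was 2347670 to 3904688 reads per library; intervals and floors cover counting error only. The main test was limma 3.58.1 (R 4.3.3) with trend and robust options on log2(value + 1), with sex as a covariate, for genes with a mean of at least 5, adjusted by Benjamini-Hochberg over all genes; adding 1 understates the fold change of low genes. edgeR 4.0.16 and DESeq2 1.42.0 on whole reads were alternatives, and called 1139 and 1136 genes higher. Interactions with day used limma, and that with genotype edgeR on the libraries with whole reads (15 Mgmt-/-, 13 WT). Steps were tested on simulated data. The labels do not say that mice came from separate litters, so p-values measure the spread between these mice.

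Named genes are the 10 highest and 10 lowest called genes with a mean of at least 20 and no overlap, the extremes, first 4 and called members of each gene list, and the 5 highest and 5 lowest of each interaction; Stat2, Hp, Scd1, Elovl6 and Mt2 were named after their values were seen. Some genes that these rules name are not reported here. The gene lists and this choice of mice were made with earlier results of these data known.

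Promoter sequences and gene starts are from RefSeq (GRCm38.p6), and positions of genes from the GRCm38 annotation.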

Additional observations from a re-analysis of the deposited data

Results flagged for a closer look

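Among the genes named, 41 of 332 groups (166 genes, NDMA and saline mice each) held a mouse whose gap to its nearest neighbour exceeded Dixon's limit. The limit assumes normal values, for which about 1 group in 20 is flagged. It was applied to normalised counts without logs, and most flagged values were the highest of their group. The 41 are thus a list to look at and not an excess over chance. Of the 41, 23 were in saline and 18 in NDMA mice.

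The NDMA male D389077 accounted for 10. It had the highest NDMA value of the class II genes H2-Aa (2403) and Cd74 (431), of the macrophage genes Lyz2 (3004), Cd5l (702), Marco (351), Timd4 (114) and Clec4f (396), and of the protease Ctsc (1244). The same mouse had the lowest NDMA value of Igf1 (669) and Hao2 (52.7). Its macrophage markers summed to 7057, the upper end of the NDMA range, and their part in its other values was not tested. The NDMA female D389095 had the highest NDMA values of the hepatocyte genes Cyp1a2 (371), Oat (191), Cps1 (4200), Cyp2c50 (973), Ces2a (359) and Abhd15 (21.1).

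In saline mice, the male D389006, 1 of the pair that stands apart, was highest in the lipid genes Thrsp (4148), Hmgcs1 (3518), Scd1 (510) and Elovl6 (82.5), and the female D389012 of the pair in Cxcl9 (35.6) and Saa1 (132). The female D389023 was highest in Afp (1851), Gulo (1121), Cxcl12 (456), Btg2 (199), Apoa4 (79.2), S100a11 (60.9) and Jun (32.3), the female D389035 in Ces1c (2724), Gclc (195) and Mki67 (44.5) and lowest in Ctsc (156), and the female D389047 in Ces2a (664), Cxcl1 (32.7), Cd3g (19.2) and Pqlc3 (8.52). The remaining single values were Ddb2 (11.1) and Cidec (6.17) in saline mice and Apoa4 (292) and Xpc (23.3) in NDMA mice.

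Between genotypes, the log2 fold change was higher in Mgmt-/- than in WT mice for Gsta1 (by 5.78), Gm4841 (4.90), Ccr2 (3.47), Pqlc3 (3.43), Ubd (3.40), H2-Aa (2.92), Cd74 (2.85), Mdm2 (2.56), Igtp (1.90), Lyz2 (1.59) and Irf1 (1.33). The differences were below 0 for Thrsp (-6.82), A1bg (-6.07), Odf3b (-2.84), Prodh (-2.48), Car5a (-2.37), Slc1a2 (-2.21), Rgn (-1.47) and Lect2 (-1.07). Each passed in edgeR with Benjamini-Hochberg adjustment. Without the pair of saline libraries that stand apart, Gsta1, Gm4841, Ubd, Prodh and Slc1a2 did not pass (adjusted p = 0.068, 0.079, 0.077, 0.06 and 0.07).

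Between day 2 and day 5, the difference of log2 fold changes was 4.09 for Ltf, 1.07 for Spp1 and 0.83 for Pdia4, and below 0 for Cyp1a2 (-2.0), Abhd15 (-1.62), Lect2 (-1.21), Etnk2 (-1.08) and Acaa1a (-1.07), each past the threshold in limma's interaction test.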

How the results depend on the processing

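The comparison of NDMA and saline mice gave 1080 to 1231 higher and 633 to 726 lower genes when each of the 15 mice was left out in turn. Pseudocounts of 0.5 and 5, no sex term, limma without its trend and robust options, edgeR (1139 and 831) and DESeq2 (1136 and 958) on whole reads and no threshold on the fold change (1504 and 992) stayed within 1.5 times of the counts reported. With a mean of at least 20, fewer genes were tested, and 721 of 5509 were higher and 520 lower, beside 1170 and 710 of 9469. Males alone gave 745 higher and 391 lower genes and females alone 436 lower, with fewer mice in each. Scaling every library to the same total left 413 lower genes, and 424 when the pair of saline libraries that stand apart was also left out. That omission, the single-sex fits and the combinations were chosen after seeing the data. Without the pair, H19 changed sign (log2 fold change -0.69 in limma, -0.71 in edgeR). Of 166 named genes, 163 kept their direction and side of the threshold in edgeR, 160 of 163 in DESeq2, 157 with the same total, 150 in males alone and 149 in females alone, and 2460 of 2490 values did when 1 mouse was left out. Many of these genes were named as extremes or called members, so the agreement describes them and not all calls.

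The test of day 2 against day 1 gave 1 gene with a lower fold change when all day 1 libraries entered with batch as a term. Against day 5 there were 0 higher and 1 lower with the kidney-bearing libraries of day 5, and 41 and 21 without the saline pair. The genotype test gave 142 to 270 higher and 71 to 190 lower genes when 1 library was left out. The lowest counts came without the WT saline mice D215003 (142 and 74) and D215001 (146 and 71), and the lower count was 190 without the WT NDMA mouse D215006 and 78 without the WT NDMA mouse D202005. Why these settings moved the counts was not tested.

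No paired analysis was possible because each mouse has its own number, shared with no other sample.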

Other observations

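The genes named here lie outside the lists and were chosen after their values were seen, so they stand for no family. The sulfotransferase Sult2a1, which conjugates steroids and bile acids, lay at 1312 to 2887 (median 1625) in NDMA and 4700 to 8127 (median 6894) in saline mice (log2 fold change -1.89 ± 0.13, adjusted p = 1e-10), and the sulfotransferases Sult2a8 and Sult1c2 had log2 fold changes of -1.84 ± 0.16 and -2.22 ± 0.23. The carboxylesterase Ces2e, of a family that cleaves ester drugs and lipids, lay at 1889 to 3314 (median 2530) against 529 to 865 (median 566) (log2 fold change 2.00 ± 0.13, adjusted p = 6.9e-12), whereas Ces1c (-1.65 ± 0.12), Ces1d (-1.75 ± 0.15) and Ces2a (-1.34 ± 0.13) fell. How reads shared between similar genes were counted is not given in the sources used here.

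Other called genes were Hao2, a peroxisomal hydroxyacid oxidase (52.7 to 182 (median 166) against 539 to 877 (median 704), log2 fold change -2.28 ± 0.22), Lhpp, a phosphatase of phosphohistidine (log2 fold change -2.51 ± 0.25), and the vasopressin receptor Avpr1a (log2 fold change -2.46 ± 0.22), all lower. Among those that rose, the secreted protease inhibitor Slpi lay at 121 to 251 (median 178) against 4.44 to 60.9 (median 21.3) (log2 fold change 3.16 ± 0.35, adjusted p = 8.1e-06) and Ly6a (Sca-1), an interferon-responsive surface protein, at 139.8 to 325 (median 189) against 4.11 to 24.8 (median 12.1) (log2 fold change 4.09 ± 0.32, adjusted p = 4.6e-08). The pheromone carrier Mup20 lay at 48.2 to 95 (median 62.4) against 0 to 20.6 (median 1.03) (log2 fold change 4.25 ± 0.60).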
